A study of Mus musculus with 93 samples.

Results

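Pou5f1, Sox2, Utf1, Dppa2, Dppa3, Dppa4 and Dppa5a are 7 genes that mark pluripotent mouse cells, and they were found by name among the 33924 gene names of each deposited count table. They were described in 2 classes, the core factors Pou5f1 and Sox2 and the 4 Dppa genes, with Utf1 beside them. All 7 had enough counts to be tested in every comparison, so no member was lost to the filter on low counts. RNA was sequenced from mouse embryonic stem (ES) cells of strain R1 grown with serum and leukaemia inhibitory factor, a cytokine that keeps ES cells undifferentiated. Set 1 held 3 libraries of wild type (WT) cells and 3 of cells with the genotype Ring1b I53A, a point mutation in the enzyme that ubiquitinates histone H2A within Polycomb repressive complex 1. Set 2 held 3 libraries of WT cells and 3 with the genotype label H1b/c/d/e-QKO, a quadruple knockout of genes for linker histones, the proteins that compact chromatin between nucleosomes. The comparisons ask how the level of each gene differs from WT when Ring1b carries the mutation and in cells with the knockout label.

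Pou5f1 encodes Oct4 and Sox2 encodes an HMG-box factor, and the pair bind side by side at a composite octamer-Sox element in enhancers of many ES cell genes, their own included. Utf1 is one such target and encodes a chromatin-bound protein. Dppa2 and Dppa4 encode SAP-domain proteins that bind each other and sit on CG-rich promoters, where they act upstream of Dux and Zscan4. Dppa3, also called Stella, is an early germ cell marker whose protein keeps Uhrf1 from maintaining DNA methylation, and Dppa5a encodes a KH-domain protein that binds RNA.

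Depth was 12585621 to 23378930 counts per library. The labels do not tie the replicates to separate cultures, and the p-values therefore rest on library-to-library spread that may be technical. Rnf2, the gene of Ring1b, was at 166 to 182 CPM (counts scaled to the TMM-adjusted library size) in WT and 81.1 to 93.5 CPM in I53A of set 1, which does not check a point mutation. In set 2, none of the 4 genes the knockout label names was called lower. Hist1h1b had 2 to 9 counts in WT and 53 to 72 in the libraries labelled QKO. It was called higher there, at a log2 fold change of 3.52 ± 0.37 (SE, edgeR adjusted p = 5.53e-12). With so few counts in WT it was tested through the libraries labelled QKO, which favours a rise. Hist1h1c had 143 to 205 against 129 to 202, Hist1h1d 3 to 14 against 5 to 15, and Hist1h1e, which was too low to be tested, 0 to 6 against 3 to 12. Hist1h1b, Hist1h1d and Hist1h1e had so few counts in WT that a loss could hardly be seen. RNA counts also do not show whether a protein is made. The knockout was therefore not checked, and these groups are called libraries labelled QKO. Replicate 3 of both set 1 groups stood apart from replicates 1 and 2, at a chi-square over its degrees of freedom of 21.2 to 27.3 against them, where replicates 1 and 2 differed from each other by 2.93 in WT and 4.06 in I53A. The replicate 3 tables also follow another naming style, so values without them are given beside the set 1 results of the 7 genes, and counts with the replicate numbers as a block beside those of the gene lists where they move most. The mitochondrial share of counts was 3.35% to 3.52% in WT and 4.06% to 4.40% in I53A, and 1.63% to 1.77% in WT and 1.91% to 2.01% in the libraries labelled QKO. The number of genes with counts was 19719 to 20205 and 20450 to 21195 in set 1, and 19419 to 19931 and 20836 to 21519 in set 2, so that both measures were higher in every mutant library than in its WT libraries. Their part in the results was not tested.

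The promoters of the core factors are shown because Sox2 was called lower in I53A cells and Pou5f1 was not called. Each is a window of 300 bases from RefSeq, from 250 bases before the gene's start to 50 after it, with CG dinucleotides in capitals. That of Pou5f1 lies at chr17:35505782-35506081 and that of Sox2 at chr3:34649745-34650044 (GRCm38.p6, plus strand, 5′ to 3′).
Pou5f1: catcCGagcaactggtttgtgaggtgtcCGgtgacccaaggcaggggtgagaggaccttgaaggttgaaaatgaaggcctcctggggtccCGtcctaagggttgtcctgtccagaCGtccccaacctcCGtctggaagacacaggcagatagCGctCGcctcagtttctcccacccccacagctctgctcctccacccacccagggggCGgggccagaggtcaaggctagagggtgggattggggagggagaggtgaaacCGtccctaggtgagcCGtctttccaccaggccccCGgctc
Sox2: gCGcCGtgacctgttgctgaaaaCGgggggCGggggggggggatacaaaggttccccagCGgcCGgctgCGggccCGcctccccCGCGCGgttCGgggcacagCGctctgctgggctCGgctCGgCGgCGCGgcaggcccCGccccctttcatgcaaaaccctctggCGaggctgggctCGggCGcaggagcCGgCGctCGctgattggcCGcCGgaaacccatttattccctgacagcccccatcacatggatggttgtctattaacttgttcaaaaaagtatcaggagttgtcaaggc
The Pou5f1 window held 11 CG dinucleotides and the Sox2 window 27, against a median of 7 over 32851 promoters of the table, and Utf1 had 17. RefSeq promoters were matched for 3 of the 7 genes, and Pou5f1 had a further start with 6. The octamer ATGCAAAT, found on either strand in 1.74% of all promoters, was in none of these windows. Nor were the E-box CACGTG (7.15% of promoters) or the E2F6-type word GCGGGAA (4.6%). The Sox core ACAATG (12.6%) occurred once, at the further Pou5f1 start.

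Among the 7 genes the order of levels per length was nearly the same in all 4 groups. In CPM per kb of exon, Dppa5a was highest, with a group mean of 1051 to 1615, followed by Pou5f1 with 468 to 555. Utf1 and Sox2 came next, and their libraries overlapped in both WT groups. In I53A Utf1 stood at 227 ± 114 CPM per kb (SD, n = 3) and Sox2 at 138 ± 13.9, and the libraries did not overlap. In the libraries labelled QKO they did not overlap either, but only just, with Utf1 at 297.5 or more and Sox2 at 296.7 or less. Dppa4 was above Dppa2 in both WT groups and in the libraries labelled QKO, with no overlap. In I53A the order of this pair was turned, at 73.8 ± 21.9 CPM per kb for Dppa2 and 56.0 ± 10.4 for Dppa4, with overlapping libraries. Dppa3 was lowest in every group, at group means of 2.09 to 6.45 CPM per kb and 28 to 150 counts per library.

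**Figure D1:**
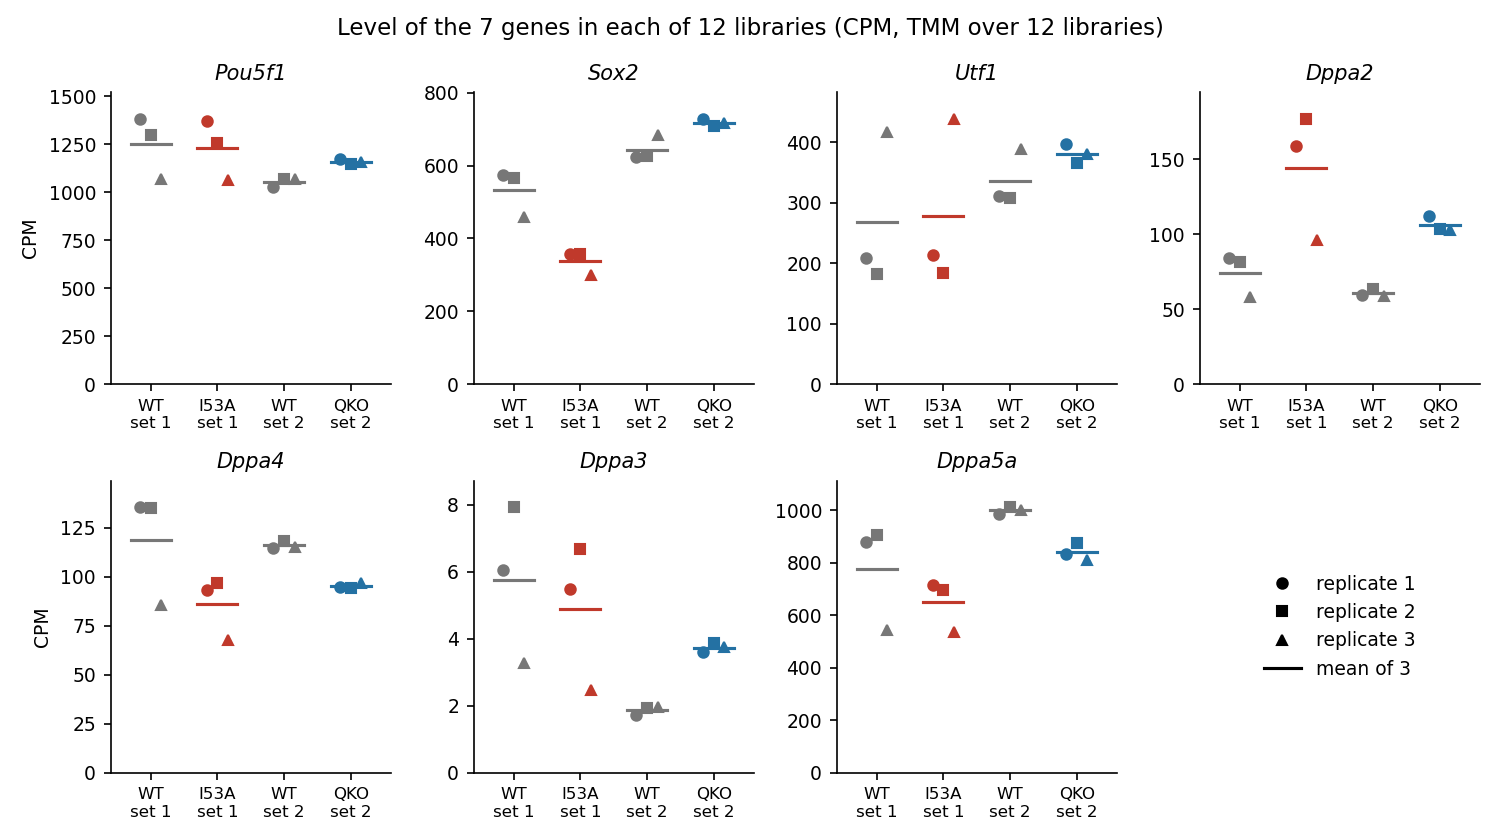
Level of each of the 7 genes in CPM (y axes, from 0, scaled by TMM over 12 libraries) in the 3 libraries of each group, with symbols for replicates 1 to 3 and a line at the mean. Sox2 is lower in all I53A libraries than in all WT libraries, Dppa2 is higher in both mutants, and replicate 3 of set 1 lies below the other replicates for each gene except Utf1, where it lies above.

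In I53A cells Sox2 RNA fell to 0.628 of its WT level, while the other core factor, Pou5f1, did not pass the test. Of the 7 genes, 1 rose (Dppa2) and 1 fell (Sox2), and 5 did not pass the test. Over all 15536 genes tested, edgeR called 18.1% higher and 17.4% lower, and the groups of 49.2% did not overlap, against 2 of the 7 here. The median log2 fold change was -0.25 over the 7 genes and -0.0010 over all genes tested.

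Pou5f1 (chromosome 17, 35642982 to 35647721, mm9, the build of all gene coordinates here) was at 1385, 1302 and 1069 CPM in replicates 1 to 3 of WT and at 1374, 1255 and 1064 CPM in I53A. The ranges of the groups nearly coincide, and replicate 3 is the lowest of each. Their log2 fold change was -0.04 ± 0.12 (SE; edgeR quasi-likelihood test, Benjamini-Hochberg adjusted p = 0.827). Within replicates 1 and 2 alone it was -0.05 ± 0.05 (edgeR adjusted p = 0.408).

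Sox2 (chromosome 3, 34548927 to 34551383) was at 575, 566 and 458 CPM in WT and at 359, 357 and 299 CPM in I53A. All I53A libraries lie below all WT libraries. The log2 fold change was -0.67 ± 0.11 (edgeR adjusted p = 0.00197), and it was -0.69 within replicates 1 and 2 and -0.62 in the replicate 3 pair. The ratio of Sox2 to Pou5f1 per kb, which needs no scaling between libraries, was 0.382, 0.399 and 0.394 in WT and 0.240, 0.261 and 0.258 in I53A, and its groups did not overlap. This ratio and the ratio of Dppa2 to Dppa4 were chosen after the values were seen and carry no test. Sox2 lies inside the span of the long non-coding RNA Sox2ot, whose exons do not overlap it, and Sox2ot moved from 4.80 ± 0.45 to 2.85 ± 0.36 CPM (log2 change -0.76 ± 0.19, edgeR adjusted p = 0.0157).

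Markers of another lineage moved with this fall. The 18 markers of primitive endoderm, the layer that forms the yolk sac, summed to 357 to 387 CPM in WT and 3433 to 3596 CPM in I53A, and all 15 that could be tested rose. Ttr was at 0 in every WT library. A marker near 0 in WT can pass the filter on low counts through the I53A libraries alone, which favours rises among those tested. The sums cover all 18 markers, tested or not. The 10 other ES cell identity markers summed to 4704 to 4875 CPM in WT and 4122 to 4274 CPM in I53A, and of these 2 rose and 4 fell. The 14 fibroblast feeder markers summed to 29.6 to 30.4 and 70.7 to 75.8 CPM, with Postn, Dcn, Fap and Prrx1 at 0 in WT and Lum at 0 in I53A, and 7 of the 7 tested rose. The 12 trophoblast markers summed to 54.3 to 61.7 and 131 to 144 CPM, and 4 of 9 tested rose. In the fibroblast and trophoblast lists too, markers near 0 in WT can be tested through I53A alone. In such bulk samples fewer cells of a type and less RNA per cell cannot be told apart, and the part of other cells in the Sox2 fall was not tested.

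Utf1 (chromosome 7, 147129688 to 147131011) was at 209, 181 and 416 CPM in WT and at 213, 184 and 439 CPM in I53A. Its libraries divided by replicate and not by genotype, with replicate 3 above the mean of replicates 1 and 2 by 1.10 log2 units in WT and 1.15 in I53A. The genotypes differed by 0.03 ± 0.48 (edgeR adjusted p = 0.963), and by 0.01 ± 0.07 within replicates 1 and 2 (edgeR adjusted p = 0.941).

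**Figure D2:**
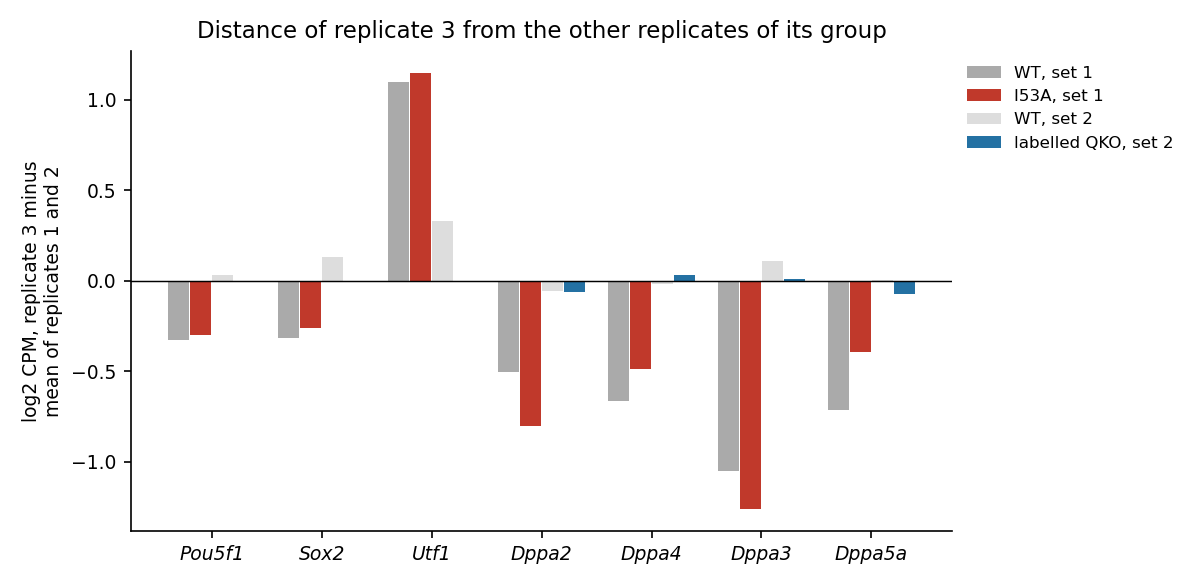
Distance of replicate 3 from the mean of replicates 1 and 2 in log2 CPM (y axis) for each gene, with a bar per group. In set 1 the bars of WT and I53A point the same way for all 7 genes and reach from -1.26 for Dppa3 to 1.15 for Utf1, while in set 2 they stay between -0.07 and 0.33.

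Dppa2 (chromosome 16, 48310590 to 48319836) was at 83.8, 81.3 and 58.0 CPM in WT and at 159, 177 and 95.8 CPM in I53A. All I53A libraries lie above all WT libraries, and replicate 3 is the lowest of both groups. Dppa2 rose by a log2 fold change of 0.94 ± 0.24, a 1.91-fold rise (edgeR adjusted p = 0.0211). With the replicate numbers as a block it was 0.92 ± 0.06 (edgeR adjusted p = 2.97e-08), and within replicates 1 and 2 it was 1.01 ± 0.06 against 0.72 in the replicate 3 pair. Without the block the call was lost when WT replicate 2 (adjusted p = 0.0602), WT replicate 3 (0.0778), I53A replicate 1 (0.0654) or I53A replicate 2 (0.0618) was left out, by edgeR.

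Dppa4 (chromosome 16, 48283848 to 48294405) is the nearest gene to Dppa2, with 16184 bases and no annotated gene between them. It was at 136, 135 and 85.5 CPM in WT and at 93.1, 97.1 and 67.6 CPM in I53A. The groups overlap because WT replicate 3 lies below I53A replicates 1 and 2. The log2 fold change was -0.48 ± 0.20 (edgeR adjusted p = 0.105), and with the replicate block it was -0.47 ± 0.05 and passed the test (edgeR adjusted p = 7.16e-07). Within replicates 1 and 2 it was -0.53 ± 0.06 (edgeR adjusted p = 5.95e-09), and in the replicate 3 pair -0.34. Without WT replicate 3 it was -0.67 and was called (edgeR adjusted p = 0.00745). The ratio of Dppa2 to Dppa4 per kb was 0.487, 0.473 and 0.534 in WT and 1.34, 1.44 and 1.12 in I53A. It was thus under 1 in each WT library and above 1 in each I53A library.

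Dppa5a (chromosome 9, 78214859 to 78215984) was at 880, 904 and 543 CPM in WT and at 717, 698 and 537 CPM in I53A. The replicate 3 libraries are alike and lowest, and in the other replicates I53A is below WT. The log2 fold change was -0.27 ± 0.20 (edgeR adjusted p = 0.344), with the block -0.25 ± 0.07 (edgeR adjusted p = 0.0182), within replicates 1 and 2 -0.35 ± 0.05 (edgeR adjusted p = 5.6e-08) and in the replicate 3 pair -0.01. It was also called without WT replicate 3, at -0.47 (edgeR adjusted p = 0.0137). A fall was thus measured in replicates 1 and 2 only. Dppa3 (chromosome 6, 122576428 to 122580290) was at 6.05, 7.93 and 3.28 CPM in WT and at 5.49, 6.68 and 2.46 CPM in I53A. Its groups overlap over most of their range, and the log2 fold change was -0.25 ± 0.40 (edgeR adjusted p = 0.677), with -0.22 ± 0.20 within replicates 1 and 2 (edgeR adjusted p = 0.363).

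With the block, 1 of the 7 genes was called higher and 3 were called lower (Sox2, Dppa4 and Dppa5a), where edgeR called 28.1% of all genes higher and 28.5% lower.

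**Figure D3:**
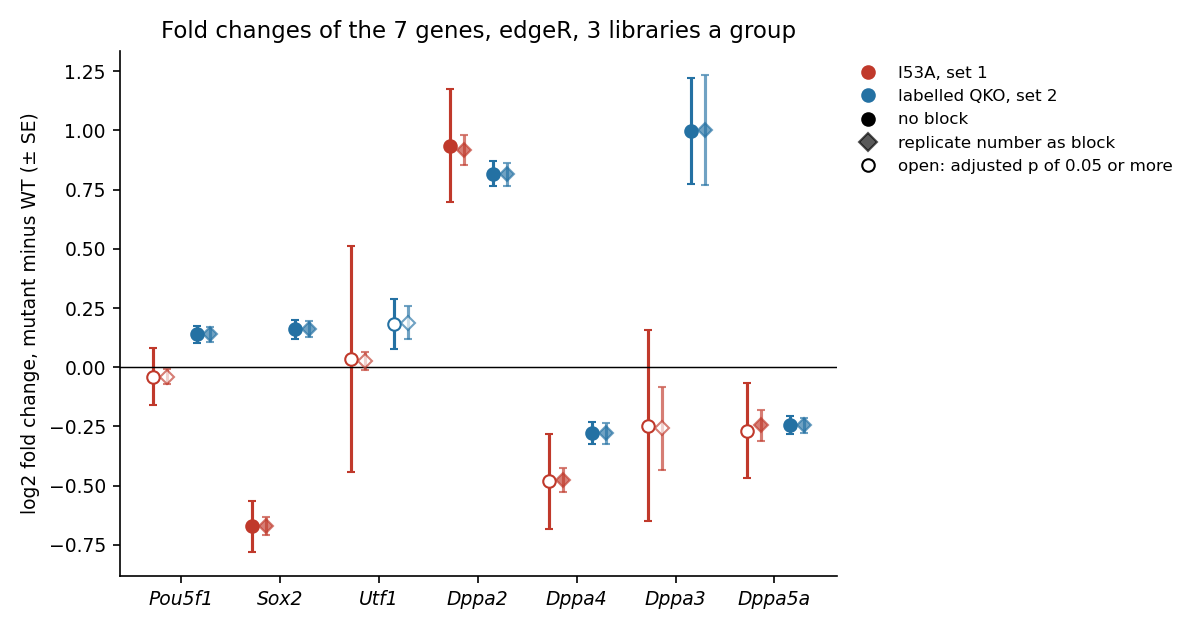
Log2 fold change against WT (y axis, bars are SE) for each gene in I53A and in the libraries labelled QKO, without (circles) and with (diamonds) the replicate number as a block, open symbols for an adjusted p of 0.05 or more. The block narrows the errors in set 1 and fills the symbols of Dppa4 (-0.47) and Dppa5a (-0.25), and Sox2 is the gene with called changes of opposite sign.

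In the libraries labelled QKO both core factors rose slightly, Dppa2 and Dppa3 rose by more, and Dppa4 and Dppa5a fell. Of the 7 genes, 4 rose, 2 fell and Utf1 did not pass the test. Over all 15439 genes tested, 28.7% were called higher and 29% lower, and 61.4% had groups that did not overlap, against 6 of the 7 here. The median log2 fold change was 0.16 over the 7 genes and -0.0033 over all genes tested.

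Pou5f1 was at 1029, 1068 and 1072 CPM in WT of set 2, and the libraries labelled QKO had 1174, 1146 and 1158 CPM. Every one of the latter lies above every WT library, by a small margin. This log2 fold change was 0.14 ± 0.04, or 1.10-fold (edgeR adjusted p = 0.00094). Sox2 was at 623, 625 and 684 CPM against 729, 707 and 716 CPM, again with no overlap. Its log2 fold change was 0.16 ± 0.04, or 1.12-fold (edgeR adjusted p = 0.000401). The ratio of Sox2 to Pou5f1 was 0.538 to 0.586 in WT and 0.567 to 0.570 in the libraries labelled QKO, which lie inside the WT range. Sox2ot rose from 1.37 ± 0.48 to 3.36 ± 0.16 CPM (log2 change 1.29 ± 0.25, edgeR adjusted p = 2.03e-05). Utf1 was at 311.8, 308.1 and 389.1 CPM in WT of set 2, and the libraries labelled QKO had 397, 365 and 380 CPM. WT replicate 3 lies among the latter, and the log2 fold change was 0.18 ± 0.10 (edgeR adjusted p = 0.2). Without that library it was 0.30 (edgeR adjusted p = 1.64e-10).

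Dppa2 was at 59.3, 63.4 and 58.8 CPM in WT, and the libraries labelled QKO had 112, 104 and 103 CPM. The groups are far apart for their spread, with a log2 fold change of 0.82 ± 0.05, or 1.76-fold (edgeR adjusted p = 2.27e-19). Dppa4 went the other way, from 115, 118 and 115 CPM to 95.0, 94.3 and 96.8 CPM. Its log2 fold change was -0.28 ± 0.05 (edgeR adjusted p = 1.17e-06), also with no overlap. The ratio of Dppa2 to Dppa4 was 0.403 to 0.422 in WT and 0.839 to 0.926 in the libraries labelled QKO, so that every library of both mutants was above its WT libraries, and of the 4 groups I53A alone had ratios above 1.

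**Figure D4:**
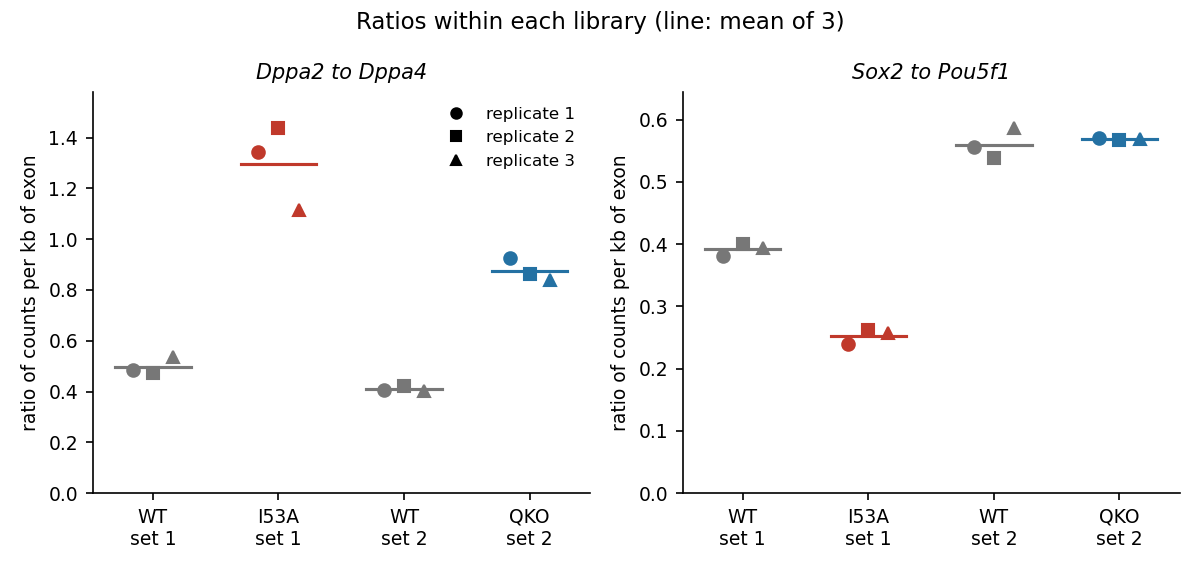
Ratios of counts per kb of exon within each library (y axes, from 0), with a symbol per replicate and a line at the mean of 3. The ratio of Dppa2 to Dppa4 is higher in both mutants than in any WT library, and that of Sox2 to Pou5f1 is lower in I53A and within the WT range in the libraries labelled QKO.

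Dppa3 was at 1.71, 1.93 and 1.96 CPM in WT, and the libraries labelled QKO had 3.60, 3.86 and 3.75 CPM. It stood at few counts in all of them, and no libraries of the groups overlapped. The log2 fold change was 1.00 ± 0.22, or 2.00-fold (edgeR adjusted p = 0.000135). Dppa5a fell from 984, 1012 and 1002 CPM to 835, 877 and 812 CPM, with a log2 fold change of -0.24 ± 0.04 (edgeR adjusted p = 1.59e-07). When all 12 libraries share an estimate of spread, the calls of Pou5f1, Sox2, Dppa4 and Dppa5a are lost, with edgeR adjusted p = 0.281, 0.171, 0.208 and 0.285, and those of Dppa2 and Dppa3 are not. The primitive endoderm markers summed to 274 to 296 CPM in WT and 376 to 387 CPM in the libraries labelled QKO, with 8 of 13 tested higher and Ttr at 0 in both groups, and the ES cell identity markers summed to 5242 to 5502 and 6489 to 6570 CPM, with 6 higher and 2 lower. Fibroblast markers summed to 26.37 to 27.04 and 47.5 to 48.0 CPM, with 4 of 6 tested higher, Dcn and Lum at 0 in both groups and a further 6 of the 14 at 0 in WT. Trophoblast markers summed to 66.6 to 76.2 and 40.8 to 43.9 CPM, with 2 of 7 tested higher and 3 lower and Plac1 at 0 in both groups. Here too a marker near 0 in WT can be tested through the libraries labelled QKO alone, which favours rises. The part of these cells was not tested.

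The difference between the I53A and the QKO effect was tested as an interaction over the 12 libraries. It passed for Sox2 alone of the 7, at -0.81 ± 0.12 log2 units (edgeR adjusted p = 0.000127), where 36.1% of all 16501 genes passed. For Dppa3 it was -1.22 ± 0.48 (edgeR adjusted p = 0.0601), and with the block -1.24 ± 0.28 (edgeR adjusted p = 0.000432). It was also called without WT replicate 3 of set 1, at -1.48 (edgeR adjusted p = 0.00692), and without I53A replicate 2, at -1.51 (0.0263). With the block 4 of the 7 passed, where 48.9% of all genes did, the others being Pou5f1 at -0.16 ± 0.05 (edgeR adjusted p = 0.00833) and Dppa4 at -0.18 ± 0.07 (edgeR adjusted p = 0.027). For Dppa2 the effects differed by 0.14 ± 0.29 (edgeR adjusted p = 0.752) and for Dppa5a by -0.01 ± 0.24 (edgeR adjusted p = 0.993). With errors of this size neither value shows that the effects are alike.

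The WT groups of the sets differed too, and sets and handling cannot be told apart. Dppa3 was lower in WT of set 2 by a log2 difference of -1.63 ± 0.35 (edgeR adjusted p = 0.00115), Pou5f1 by -0.25 ± 0.09 (edgeR adjusted p = 0.0368), and Sox2 was higher by 0.27 ± 0.09 (edgeR adjusted p = 0.0145). These were 3 of the 7 genes, where 57.4% of all genes were called. The Pou5f1 call was lost without WT replicate 1 (0.172) or 2 (0.113) of set 1 or WT replicate 1 of set 2 (0.0906), and the Sox2 call without WT replicate 3 of set 1 (0.0517) or of set 2 (0.0988), as edgeR adjusted p.

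The counts of the gene lists below stand beside 18.1% of all genes called higher and 17.4% lower in I53A, 28.7% and 29% in the libraries labelled QKO, and 36.1% for the difference between effects. With the replicate block the shares in I53A are 28.1% and 28.5%, and for the difference 48.9%. An error after a level in CPM is the SD of 3 libraries and one after a log2 change is its SE. Genes with an enhancer that carries the octamer-Sox element were read beside the core factors. Of 8, among them Pou5f1, Sox2 and Utf1 themselves, 1 rose and 4 fell in I53A with a median log2 fold change of -0.22, and 6 rose and 1 fell in the libraries labelled QKO with a median of 0.17. Nanog, the third factor of the core network, went from 1269 ± 95.3 to 998 ± 68.4 CPM in I53A (log2 fold change -0.36 ± 0.08, edgeR adjusted p = 0.00927) and from 567 ± 8.76 to 772 ± 21.2 CPM in the libraries labelled QKO (0.45 ± 0.04, edgeR adjusted p = 4.04e-15). The WT levels of Nanog also differed between the sets, and mutation and set cannot be told apart. Spp1, which encodes osteopontin, had log2 fold changes of -1.18 ± 0.09 and 0.37 ± 0.04 (edgeR adjusted p = 4.49e-05 and 8.23e-11). Fbxo15, an F-box gene, rose in both, by 0.62 ± 0.07 and 1.14 ± 0.05, and Lefty1, an inhibitor of Nodal signals, fell in both, with log2 fold changes of -2.34 ± 0.17 and -1.39 ± 0.08. Fgf4, a growth factor gene, had log2 fold changes of -0.07 ± 0.09 in I53A (edgeR adjusted p = 0.556) and 0.12 ± 0.04 in the libraries labelled QKO (0.0099). The difference between the effects passed for 5 of the 8, Sox2 among them, each with the lower value in I53A. With the replicate block it passed for 7 of the 8, again each with the lower value in I53A.

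Of 27 genes of the wider pluripotency network, which include Nanog, Fbxo15, Lefty1 and Fgf4, 4 rose and 15 fell in I53A with a median log2 fold change of -0.36, and 14 rose and 9 fell in the libraries labelled QKO with a median of 0.15. Klf2, a naive-state factor, fell in I53A, with a log2 fold change of -1.53 ± 0.33 (edgeR adjusted p = 0.0138) and rose in the libraries labelled QKO by 1.06 ± 0.11 (0.000681). Lefty2, a relative of Lefty1, fell in both, with log2 fold changes of -1.37 ± 0.14 and -1.87 ± 0.05. Dnmt3l, a cofactor of the de novo DNA methyltransferases, rose in both, by 0.33 ± 0.06 and 1.70 ± 0.05. Zfp42, also called Rex1, fell in I53A (log2 fold change -0.50 ± 0.06) and rose in the libraries labelled QKO (0.86 ± 0.04). With the replicate block 7 rose and 17 fell in I53A. The difference between effects was lower in I53A for 14 of the 27 and higher for 2, and with the block for 19 and 4.

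**Figure D5:**
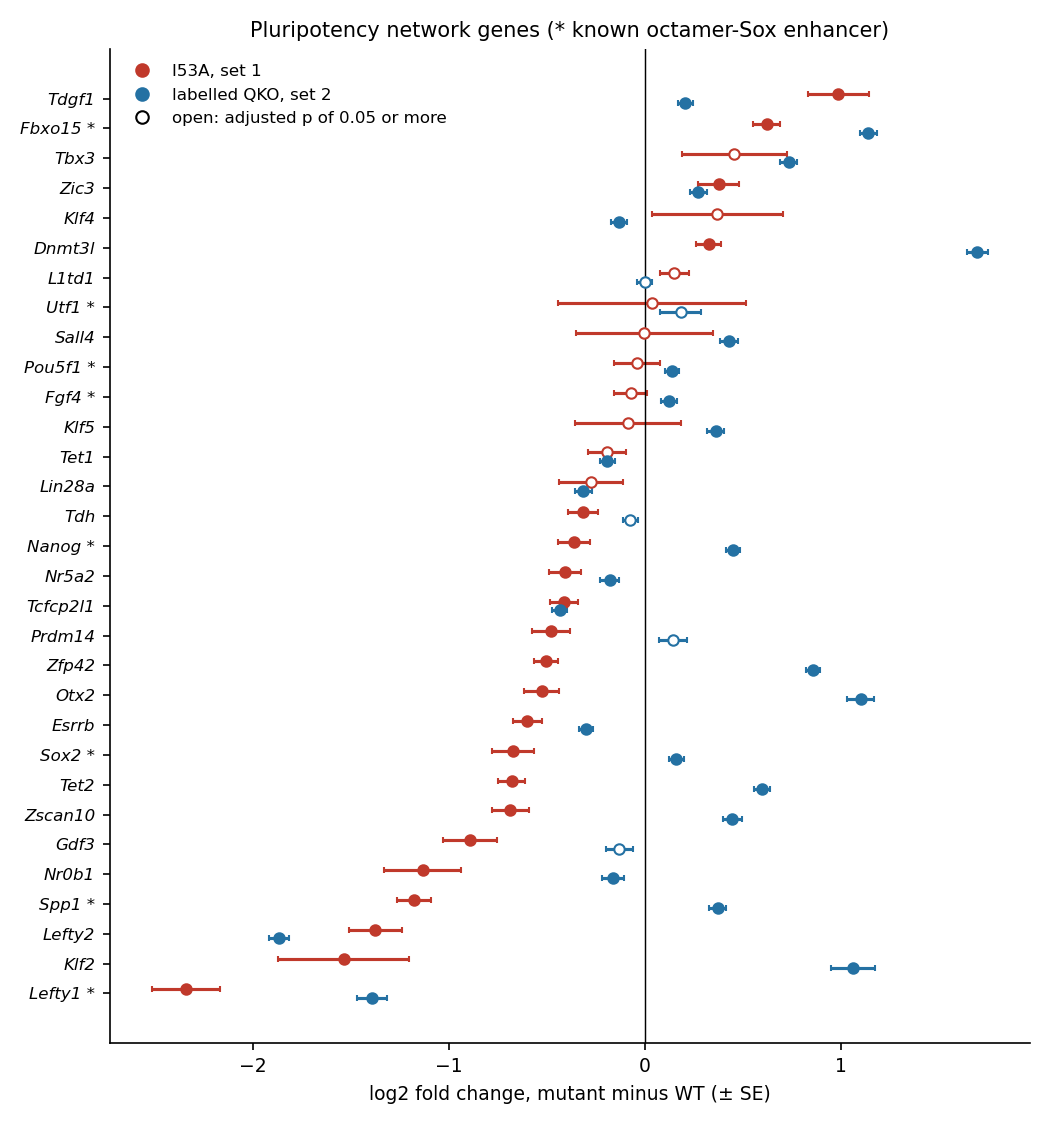
Log2 fold change against WT (x axis, bars are SE) of pluripotency network genes in I53A and in the libraries labelled QKO, sorted by the I53A value, with a star at genes of the octamer-Sox enhancer list. Lefty1 is lowest in I53A at -2.34, and Sox2, Nanog, Spp1 and Klf2 are among the genes with called changes of opposite sign.

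Relatives of the core factors were few at this depth. Sox3, a SoxB1 factor like Sox2, rose in both mutants, from 2.73 ± 0.48 to 8.54 ± 1.51 CPM in I53A and from 1.44 ± 0.39 to 5.09 ± 0.44 CPM in the libraries labelled QKO (log2 fold change 1.64 ± 0.21 and 1.81 ± 0.22, edgeR adjusted p = 0.000689 and 5.37e-10). Sox15, another Sox factor of ES cells, had log2 fold changes of -0.67 ± 0.10 and 0.50 ± 0.11 (edgeR adjusted p = 0.00128 and 7.09e-05). It went from 41.3 ± 2.56 to 26.2 ± 2.00 CPM in I53A and from 10.7 ± 0.87 to 15.2 ± 1.08 CPM in the libraries labelled QKO. Its I53A level thus stayed above its level in the libraries labelled QKO, and mutation and set cannot be told apart. Of the other POU-domain genes, 1 of 8 tested rose in I53A (2 rose and 1 fell with the replicate block). It was Pou3f3, with a mean of 0.295 CPM in WT and 1.75 CPM in I53A. Being that low in WT, it passed the filter on low counts through the I53A libraries, which favours a rise. In the libraries labelled QKO 4 of 7 tested rose and 1 fell. Pou2f3 rose from 3.16 to 11.9 CPM (log2 change 1.91 ± 0.15) and Pou4f1 from 4.67 to 15.1 CPM (1.70 ± 0.13).

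Of the genes that depend on Dppa2 and Dppa4 in other mouse ES cells, those that could be tested rose in both mutants. A gene low in WT can pass the filter on low counts through the mutant libraries alone, which favours rises among those tested. In I53A all 6 that could be tested rose, with a median log2 fold change of 2.72, and in the libraries labelled QKO all 5 rose, with a median of 1.44, while Dppa2 rose and Dppa4 had the values given above. Mael, a germline gene of the piRNA pathway, went from 8.03 ± 0.46 to 62.5 ± 4.00 CPM in I53A and from 12.2 ± 0.73 to 17.4 ± 1.19 CPM in the libraries labelled QKO (log2 fold change 2.95 ± 0.10 and 0.52 ± 0.10). Tdrkh, another gene of that pathway, rose by 2.50 ± 0.13 and 0.56 ± 0.10, and Syce1, a synaptonemal complex gene, by 1.68 ± 0.09 and 1.44 ± 0.08. Zscan4c and Zscan4d, markers of a state like the early embryo, rose by 3.58 ± 0.26 and 3.38 ± 0.16 in I53A and by 5.01 ± 0.28 and 5.32 ± 0.21 in the libraries labelled QKO, and near-identical copies make the assignment of their reads uncertain. Dux, the activator of Zscan4, rose from 0.615 ± 0.15 to 1.76 ± 0.23 CPM in I53A and was at 0.0194 ± 0.034 and 0.549 ± 0.10 CPM in set 2, too low to be tested there, and Nkx2-5 was tested in neither. The difference between effects was higher in I53A for Mael and Tdrkh and lower for Zscan4d. Dux also passed that test, but it entered the fit through set 1 and its value rests on a WT group of set 2 close to 0.

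Partners of Dppa3 in DNA methylation moved both ways. Of 9 genes, 3 rose and 3 fell in I53A (5 and 4 with the replicate block), with a median log2 fold change of 0.14, and 4 rose and 4 fell in the libraries labelled QKO, with a median of -0.05. Uhrf1, which the Dppa3 protein holds back, fell in both, with log2 fold changes of -0.50 ± 0.08 and -0.47 ± 0.04 (edgeR adjusted p = 0.00158 and 2.24e-15), as did Dnmt1, which Uhrf1 recruits, with -0.24 ± 0.07 and -0.29 ± 0.04. The methylcytosine dioxygenase gene Tet2 fell in I53A (log2 fold change -0.68 ± 0.07) and rose in the libraries labelled QKO (0.60 ± 0.04). Of 10 tested genes of primordial germ cells, where Dppa3 is a marker, 2 rose and 6 fell in I53A, with a median of -0.68, and 1 rose and 7 fell in the libraries labelled QKO, with a median of -0.30. Prdm1, a germ cell specification factor, fell in both, with log2 fold changes of -2.88 ± 0.15 and -1.83 ± 0.14. Tcfap2c, which acts with it, had -1.95 ± 0.09 and -0.80 ± 0.06, and Ifitm1, a membrane protein gene of these cells, -2.64 ± 0.16 and -0.51 ± 0.06, and both fell.

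Primed epiblast genes, which mark the later state of pluripotency, rose in 6 and fell in 4 of 13 tested cases in I53A, with a median log2 fold change of 0.39, and rose in 4 and fell in 5 of 11 in the libraries labelled QKO, with a median of -0.07. Lef1, a Wnt effector, rose in both, by 4.08 ± 0.30 and 1.51 ± 0.25. Cldn6, a claudin, rose in I53A (log2 fold change 1.41 ± 0.09) and fell in the libraries labelled QKO (-1.16 ± 0.11). Both genes named here rose in I53A, while 4 other genes of the list fell there. In this list too, a gene near 0 in WT can be tested through the mutant libraries alone, which favours rises.

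Neighbours were the 3 nearest genes on each side of a member that were tested in both sets and had no provisional name, such as a Gm number. Of the 36 neighbours that were not members, 4 rose and 12 fell in I53A, with a median log2 fold change of -0.20. In the libraries labelled QKO 12 rose and 13 fell, with a median of -0.04. The QKO counts are near the shares called over all genes (28.7% and 29%), and nothing is read from them. In I53A, with 18.1% and 17.4% called over all genes, the block moved the counts to 7 and 17, with 28.1% and 28.5% over all genes. Morc1, 112 kb from Dppa2, fell from 189 ± 6.94 to 95.0 ± 4.41 CPM in I53A and rose from 40.7 ± 1.44 to 77.3 ± 4.34 CPM in the libraries labelled QKO (log2 fold change -1.01 ± 0.07 and 0.93 ± 0.06, edgeR adjusted p = 2.87e-05 and 1.38e-19). Thus of the cluster Dppa4, Dppa2 and Morc1, Dppa2 rose in both mutants and Morc1 changed in opposite directions, from WT levels that differed between the sets. Among these neighbours, Dppa3 lies between Gdf3, 16.3 kb away, and Nanog, 77.2 kb away. Gdf3, a TGF-beta family ligand, fell in I53A (log2 fold change -0.89 ± 0.14) and did not pass the test in the libraries labelled QKO (-0.13 ± 0.07). Apobec1, a cytidine deaminase gene 24.0 kb from Dppa3, fell in both, with -0.85 ± 0.13 and -0.91 ± 0.13. The glucose transporter gene Slc2a3, beyond Nanog, rose in I53A (0.45 ± 0.07) and fell in the libraries labelled QKO (-0.48 ± 0.04).

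Dppa5a has KH-domain relatives nearby. Ooep, an oocyte gene 7.93 kb away, fell in I53A from 63.0 ± 10.1 to 33.2 ± 4.61 CPM and rose in the libraries labelled QKO from 44.9 ± 2.15 to 56.7 ± 1.26 CPM (log2 changes -0.94 ± 0.14 and 0.34 ± 0.06). Khdc3, which acts with Ooep in the egg, rose in both, by 0.51 ± 0.13 and 0.20 ± 0.09, and the other 3 listed relatives, Khdc1a, Khdc1b and Khdc1c, were too low to be tested. Gsta4, a glutathione transferase gene 158 kb away on the other side, fell in both, with log2 fold changes of -1.22 ± 0.11 and -0.20 ± 0.04. Next to Pou5f1, Tcf19 fell in I53A (-0.43 ± 0.09) and did not pass the test in the libraries labelled QKO (-0.17 ± 0.11), and Cchcr1 fell in both (-0.32 ± 0.09 and -0.35 ± 0.07). Kndc1, 2.25 kb from Utf1, fell in I53A (-0.69 ± 0.13) and rose in the libraries labelled QKO (0.22 ± 0.08).

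Near-identical copies bear on Dppa3 and Dppa5a. Dppa5b, a copy 120 kb from Dppa5a, held 0.207% to 5.86% of the count of Dppa5a, at 10.6 to 40.9 CPM in set 1 and 2.10 to 4.02 CPM in set 2. It had a log2 fold change of 0.26 ± 0.43 in I53A (edgeR adjusted p = 0.679) and -0.08 ± 0.23 in the libraries labelled QKO (0.794). The pseudogene Dppa3-ps held 0 to 16 counts, at most 48.5% of the Dppa3 count, in I53A replicate 3, so some Dppa3 reads of set 1 are of uncertain origin. A Pou5f1 copy in the tables was at 0 counts in every library, and 6 further copies in RefSeq and the Dppa5a copy Dppa5c were not analysed here. Dppa1 had 0 to 5 counts and was not tested.

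Genes like each member were sought among 9937 genes with a mean of at least 5 CPM and no provisional name. For each member the genes most like it were named by the Pearson correlation of log2 CPM over the 12 libraries. These values are descriptions, since the libraries share sets, genotypes and the separate replicate 3. Sox2 was followed most closely, by Kars (r = 0.995), Tubb2b (0.994) and Yes1 (0.988). Dppa4 was nearest to Ccdc14 (0.980), Mdm4 (0.967) and Timm9 (0.949), and Dppa5a to Cdc26 (0.978), Lsm6 (0.963) and Zfp760 (0.962). Pou5f1 was nearest to Atp5j (0.961), Ppp1r8 (0.935) and Snrpd3 (0.934), and Utf1 to Mrpl4 (0.961), Aimp2 (0.960) and Pom121 (0.959). Dppa2 was nearest to Abca1 (0.954), Cog6 (0.950) and Ggct (0.946), and Dppa3 to Zfp960 (0.953), Psmc3 (0.950) and Usp27x (0.945).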

How the data were processed

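The authors deposited a table of raw counts per gene for each of the 12 RNA-seq libraries, made with featureCounts version 1.6.3 on the mm9 GENCODE annotation, per the file headers, and no option for strand was set there. The submitters' processing notes name HISAT2, while the alignments of set 1 carry TopHat in their names, per the file headers, so the aligner of each set is not settled. The chromatin assays among the 93 samples were not analysed here.

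Counts were scaled by TMM, filtered with filterByExpr and tested with edgeR's robust quasi-likelihood test (version 4.0.16, R 4.3.3), two-sided, over the 6 libraries of a set, with Benjamini-Hochberg adjustment over all genes tested and a threshold of 0.05. The difference between effects and the comparison of WT groups used all 12 libraries. CPM values use TMM over the 12 libraries, and CPM per kb divides by the exon length of the tables. Log2 CPM for likeness used a prior count of 2. Alternatives were DESeq2 version 1.42.0, its size factors, upper quartile and library totals as scaling, other filters, the replicate block, a shared spread, a batch term and each library left out. The fits were tested on simulated data with the same spread for every gene and no separate replicate 3. That test therefore does not check the set 1 calls that depend on replicate 3.

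Replicate numbers come from the labels. In set 1 the deviations of same-numbered WT and I53A libraries from their group means correlated at 0.229, 0.258 and 0.491 across genes, so the numbers were taken as pairs. Replicates 1 and 2 correlated nearly as well across numbers (0.218 and 0.241), so the pairing is mainly that of replicate 3.

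The members and all gene lists were chosen with earlier results of these data known. The genes named are the members, their relatives, known targets and partners, from the other lists genes among the 3 called members of largest change per comparison, neighbours of the members, and the 3 genes most like each. Counting intervals are not given, since counts carry no molecular identifiers and the spread between libraries is used. Reads of overlapping or antisense genes cannot be told apart.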

Additional observations from a re-analysis of the deposited data

Results flagged for a closer look

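The I53A effect and the QKO effect on Sox2 differed by a test of the difference itself. Without the replicate block it was the 1 of the 7 genes to pass, and with the block Pou5f1, Dppa3 and Dppa4 passed too. The interaction over 12 libraries was -0.81 ± 0.12 log2 units (edgeR adjusted p = 0.000127), with Sox2 lower in 3 of 3 I53A libraries than in every WT library of set 1 and higher in 3 of 3 libraries labelled QKO than in every WT library of set 2. It kept between -0.91 and -0.73 when any of the 12 libraries was left out. With all 12 libraries in the fit, the Sox2 rise in the libraries labelled QKO was not itself called (0.16, edgeR adjusted p = 0.171). Of all genes tested, 36.1% passed the test of the difference. Groups did not overlap for 49.2% of genes in I53A and 61.4% in the libraries labelled QKO. The WT groups also differed in Sox2 between the sets, by 0.27 ± 0.09 log2 units, and the mutation and the set it was measured in cannot be told apart.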

How the results depend on the processing

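The Sox2 fall in I53A and the Dppa2 rise, the Dppa3 rise and the 2 falls in the libraries labelled QKO kept their direction under every alternative run, and no result of the 7 genes that passed the test reversed. Of the member results under alternatives, 98 of 112 kept their side of the threshold for I53A, 92 of 98 for the libraries labelled QKO, 127 of 133 for the difference and 76 of 84 for the WT groups. In I53A, Dppa2 lost its call with no filter (0.92) and had 0.76 to 1.15 when a library was left out. Dppa4 gained a call with the replicate block (-0.47), the shared spread (-0.47), replicates 1 and 2 only (-0.53) and the batch term (-0.47), with -0.67 to -0.34 when a library was left out. Dppa5a gained one with the block (-0.25), replicates 1 and 2 only (-0.35) and the batch term (-0.25), with -0.47 to -0.15. The batch term for replicate 3 was chosen after seeing the data. The count of genes called higher in I53A rose from 2808 to 4371 with the block and 4387 with the batch term, and that of genes called lower from 2704 to 4427, 4434 and, with replicates 1 and 2 only, 4146. In the libraries labelled QKO the shared spread ended the calls of Pou5f1 (0.13), Sox2 (0.16), Dppa4 (-0.28) and Dppa5a (-0.25), which takes in the wider spread of set 1. Utf1 gained a call with no filter (0.17) and ranged over 0.11 to 0.30 when a library was left out. For the difference, Pou5f1 (-0.16), Dppa3 (-1.24) and Dppa4 (-0.18) passed with the block and Dppa3 with DESeq2 (-1.23), and Dppa3 had -1.51 to -0.92 when a library was left out. Between WT groups, library totals as scaling moved the median of all genes from -0.02 to -0.19, the share of calls that were higher from 48.7% to 33.5%, and Sox2 to 0.10 with no call. Pou5f1 lost its call with no filter (-0.24) and Dppa5a gained one with DESeq2 (0.36), and leaving out a library gave -0.35 to -0.17 for Pou5f1 and 0.17 to 0.33 for Sox2. In set 2 the same-numbered libraries correlated at 0.024, -0.004 and 0.042, so they share only a number, and the block there changed no call of a member (Utf1 adjusted p = 0.0507, edgeR). The other causes were not tested. Dppa3, with 28 to 150 counts per library, had the fewest counts of the 7 genes.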
